A study of Mus musculus with 2 samples.

Results

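The cells described here were the fibroblasts of the mouse knee that carried transcripts of Pi16, Cd34, Scara5, Clec3b, Dpp4 and Mfap5, a set of genes known from adventitial fibroblasts. They were selected on their own measured counts. A cell was a member if it had 500 or more genes and no more than 10% mitochondrial UMIs (unique molecular identifiers, each standing for 1 captured RNA molecule). It also had Prg4 under 20000 and Col2a1 under 2000 CPM of the cell (UMIs of the gene per 1000000 UMIs), and at least 3 of the 6 genes with 1 or more UMIs. Of 19881 cells kept by the first 2 limits in both libraries, 2062 were members: 1138 of 9992 after sham surgery and 924 of 9889 after DMM. DMM is the surgical destabilisation of the medial meniscus, which leads to osteoarthritis in mice. Both groups were wild type (WT) mice, and each group was 1 single-cell library pooled from 3 mice. Per the labels, cells were released from knee joint cartilage with collagenase and dispase, and live cells negative for CD45, Ter119 and CD31 were sorted. The sources used here give neither the age of the mice nor the time after surgery. With 1 library per group no test between groups was possible, so every interval below is a 95% interval for counting error alone and says nothing of the spread between mice.

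Adventitial fibroblasts lie in the outer sheath of blood vessels and in the loose tissue layers that cover organs and joints. Cells with Pi16, Dpp4 and Cd34 are found in many mouse tissues and are widely regarded as a reserve from which more specialised fibroblasts can form. Pi16 encodes a secreted peptidase inhibitor, Cd34 a surface sialomucin also found on blood stem cells and endothelium, and Scara5 a ferritin receptor. Clec3b encodes tetranectin, a plasminogen-binding lectin, Dpp4 a surface dipeptidase, and Mfap5 a glycoprotein of microfibrils.

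The members held a median of 7524.5 UMIs in sham and 7224.5 in DMM, against 8284 and 8046 in all kept cells. The 2 libraries shared 24 barcode sequences, of which 2 were a member in either library and 0 in both. Erythroid cells, defined by at least 4 of 8 red-cell markers and not members, passed the sort in both libraries (1814 and 1009 cells). They served as a gauge of free RNA, at median depths of 8540.5 and 10179 UMIs. Doublets called by Scrublet were 40 of the sham members and 28 of the DMM members, and were kept in the values below. Of the erythroid cells, 10.1% in sham and 9.12% in DMM were called doublets.

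The rule fixed that each member had 3 of the 6 genes, and these shares describe which ones. Clec3b had a UMI in 99.2% [98.5, 99.6] of sham members and 98.4% [97.3, 99.1] of DMM members. Mfap5 was seen in 93.3% and 90.8%, Cd34 in 90.5% and 82.9%, and Scara5 in 80.2% and 74.1%. The genes of the usual name were less widespread. Dpp4 had a UMI in 33.6% [30.8, 36.4] of sham members and 18.4% [16.0, 21.1] of DMM members. Pi16 had one in 27.4% [24.8, 30.1] and 21.5% [18.9, 24.3]. Pi16 was thus detected in a minority of the members, and Cd34, Clec3b and Mfap5 in most. The rule selected on these genes, so their shares lend the name no support. In erythroid cells the shares were 0.551% and 0.198% for Pi16, 0.882% and 0.793% for Dpp4, 1.05% and 0.694% for Cd34, 1.49% and 0.892% for Scara5, 2.87% and 3.07% for Clec3b, and 1.76% and 3.77% for Mfap5. The most frequent combination in both libraries was Cd34, Scara5, Clec3b and Mfap5 together, in 321 sham and 243 DMM members. All 6 genes were present in 160 sham members (14.1%) and 60 DMM members (6.49%).

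Genes that the rule did not name followed the same cells. Of 22 other adventitial genes, 19 were higher in members than in other connective tissue cells in both libraries, and 17 were at least 2-fold higher in both. Over all genes with enough counts, 4.07% were at least 2-fold higher in members in both libraries (555 of 13640). The other connective tissue cells were 1847 sham and 2910 DMM cells with fewer than 3 rule genes and at least 5 of 6 collagen and matrix genes. Ly6a, which encodes the stem cell antigen Sca-1, stood at 1232 CPM in sham members and 1319 in DMM members, against 221 and 342 in the other connective tissue cells. Ly6c1, from the same gene family, stood at 869.5 and 968 CPM against 153 and 232. The chemokine scavenger gene Ackr3 was at 543 and 578 CPM against 129 and 183. Pcolce2, an enhancer of procollagen processing, was at 767 and 531 CPM against 228 and 169.5. Igfbp6, which binds insulin-like growth factors, differed less, at 1416 and 2210 CPM against 976 and 1436. Limch1 went the other way, at 64.0 and 22.2 CPM in members against 101 and 37.8. Because the rule chose the members from these same counts, the differences are a description and not a test.

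Ranked by the smaller of both libraries' differences, the genes most restricted to members were led by Slc4a10, a bicarbonate transporter (10.9 and 7.96 CPM against 0.0767 and 0.0494, which is 1 UMI in each of the comparison sets). Tek, the angiopoietin receptor better known from endothelium, followed at 23.1 and 11.4 CPM against 0.843 and 0.444. The endothelial markers as a list were at 28.4 and 13.4 summed CPM, and 1 sham member and 0 DMM members had 3 of the 8. The neural adhesion gene Opcml was at 90.7 and 19.9 CPM against 4.75 and 1.04, and Tmeff2, a transmembrane protein with follistatin domains, at 95.3 and 41.6 CPM against 6.21 and 3.60. Cadm3, a cell adhesion gene, and Scg3, a secretory granule gene, stood at 91.9 and 53.2 CPM and at 69.8 and 27.7 CPM. Of the 12 leading genes 3, Ces2g, Cldn13 and Ctse, were high in erythroid cells (926 and 869 CPM for Ctse). The comparison cells had been freed of erythroid cells and the members had not. Without the members that held 3 blood or vessel markers, Ctse stood at 4.92 and 2.35 CPM against 4.14 and 3.41 in the other connective tissue cells, while Tek stayed at 23.4 and 12.2 CPM. At the other end, the bone matrix gene Spp1 was at 154 and 210 CPM in members against 2666 and 4097, and Dmp1, an osteocyte gene, at 1.17 and 1.37 CPM against 47.1 and 22.4. Of the 8 osteoblast, 12 chondrocyte and 7 tendon markers, 0 were higher in members in both libraries.

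**Figure D1:**
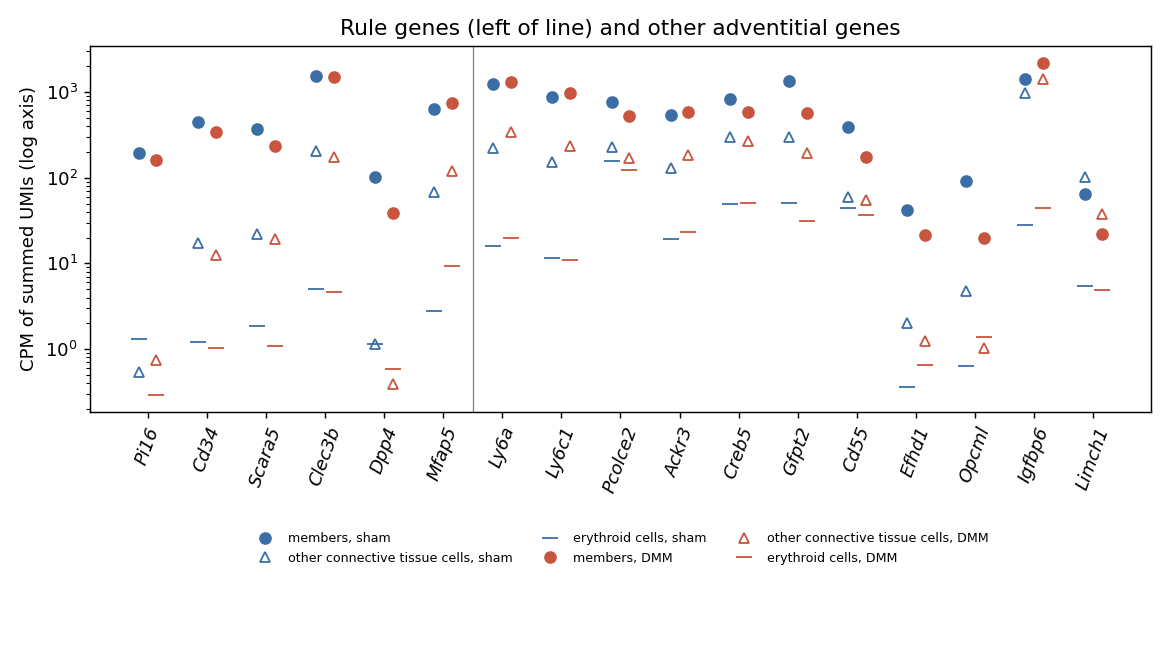
CPM of summed UMIs on a log axis for the 6 rule genes and 11 other adventitial genes, in members (filled circles), other connective tissue cells (triangles) and erythroid cells (dashes), with sham in blue and DMM in red. The rule genes lie above both comparison sets in each library; of the other genes Limch1 does not, and Igfbp6 is the closest.

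The rule's upper limits on Prg4, the lubricin gene of the joint surface, and on Col2a1, the cartilage collagen gene, left out few cells. They removed 92 of 1230 sham cells and 86 of 1010 DMM cells that had 3 rule genes. Among members 34 sham and 18 DMM cells were just inside the Prg4 limit, at 10000 CPM or more. Just outside it, less than 10000 CPM above the limit, were 10 and 13 cells. Prg4 averaged 2076 and 1545 CPM in members and 2014 and 2267 CPM in erythroid cells, and the rule capped it in members. Col2a1, which the rule also capped in members, was at 137 and 78.3 CPM in members and at 2050.5 and 1141 CPM in erythroid cells. No such limit was set on the erythroid cells.

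Members made up 11.4% [10.8, 12] of the kept sham cells and 9.34% [8.78, 9.93] of the kept DMM cells, a ratio of 0.820 [0.756, 0.891]. The difference grew with the strictness of the rule. Cells with exactly 3 rule genes were more frequent in DMM, 4.10% [3.71, 4.50] against 3.12% [2.79, 3.48]. Cells with 4 genes were less frequent, 3.05% [2.72, 3.41] against 3.98% [3.61, 4.39]. Cells with 5 or 6 genes were 2.19% [1.91, 2.50] of DMM cells and 4.28% [3.89, 4.70] of sham cells, a ratio of 0.512 [0.436, 0.602]. Just outside the rule, cells with 2 of the genes were 2.75% of sham and 4.89% of DMM cells. With 2 genes as the requirement the shares were 14.1% and 14.2%, so the lower DMM share was not present at that limit. With every cell thinned to 2000 UMIs, which left out 415 sham and 382 DMM cells, the shares were 6.86% and 4.71% and the ratio 0.687 [0.611, 0.772]. Among connective tissue cells alone, 4220 in sham and 5876 in DMM, the shares were 25.9% and 15.2%, a ratio of 0.587 [0.543, 0.636]. These cells were counted without the Prg4 and Col2a1 limits, so they include cells above the limits that could not be members. A share of sorted cells also depends on what the digestion released and on how many other cells passed the gate, and the part of these in the difference was not tested.

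**Figure D2:**
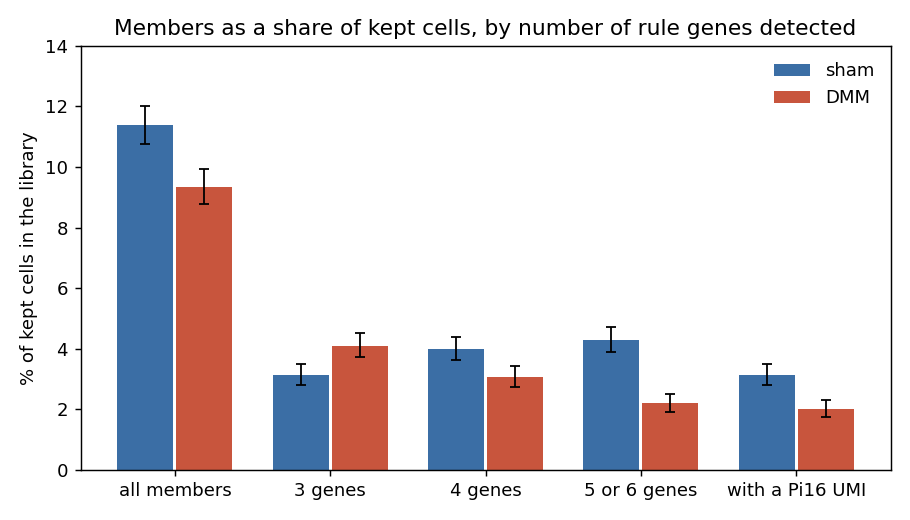
Members as a percentage of the kept cells of each library (sham blue, DMM red), for all members and split by the number of rule genes detected, with exact 95% binomial intervals. The DMM bar is higher for cells with 3 genes, lower for cells with 4, and lower by the widest ratio for cells with 5 or 6.

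Within the members the 6 rule genes did not move together. Dpp4 had 102 [95.2, 108] CPM in sham members and 39.1 [34.7, 43.9] in DMM members, 2.60-fold [2.27, 2.97] lower. With all cells thinned to 2000 UMIs, Dpp4 was seen in 16.1% of sham members and 6.79% of DMM members. Scara5 was at 374 and 235 CPM, a log2 ratio of -0.67 [-0.75, -0.59]. Cd34 was at 442 and 343 CPM, a log2 ratio of -0.36 [-0.44, -0.29]. Clec3b, at 1543 and 1495 CPM, had a log2 ratio of -0.05 [-0.08, -0.01], and Mfap5 was higher in DMM, at 635 and 745 CPM. Pi16 averaged 197 [188, 206] CPM in sham and 161 [152, 171] CPM in DMM over all members. Where it was present it was not lower: members with a Pi16 UMI held 737 CPM in sham and 809 in DMM. When DMM cells were weighted to the sham makeup of 3, 4 and 5 or 6 rule genes, the log2 ratio was 0.35 for Pi16, -0.10 for Cd34, -0.43 for Scara5 and -0.76 for Dpp4. The order of these genes thus kept Dpp4 lowest, while the direction for Pi16 depended on the makeup of the members. The rule used these genes, so no support is drawn from them.

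The other adventitial genes leaned the same way. Of the 22, 6 were at least 2-fold lower in DMM members and 0 at least 2-fold higher, with a median log2 ratio of -0.52. Over all 11180 genes with at least 50 UMIs, 2.46% were at least 2-fold lower (275 genes), 1.02% at least 2-fold higher (114 genes), and the median was -0.07. Counting any size of difference, 56.7% of them were lower and 43.2% higher in DMM. With the makeup weighted as above the list's median was -0.32. Gfpt2, an enzyme of the hexosamine pathway, had 1347 CPM in sham members and 568 in DMM members, 2.37-fold [2.29, 2.46] lower. Its log2 ratio was -1.18, -0.92 and -1.08 in members with 3, 4 and 5 or 6 rule genes, so it held in each layer. Opcml was 4.56-fold [3.82, 5.48] lower, from 90.7 to 19.9 CPM. Cd55, which protects cells from complement, was at 386 and 173 CPM, Efhd1 at 42.5 and 21.3, and Limch1 at 64.0 and 22.2. With the makeup weighted, log2 ratios still past 2-fold lower were those of Opcml (-1.82), Limch1 (-1.32) and Gfpt2 (-1.05). Those of Cd55 (-0.78), Cmah (-0.46) and Efhd1 (-0.41) were not. Ly6a, Ly6c1 and Ackr3 were slightly higher in DMM, with log2 ratios from 0.09 to 0.15, and Igfbp6 was 1.56-fold [1.53, 1.60] higher. The lower level was therefore not shared by every gene that marks these cells.

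Among the 17 functional gene lists, inflammatory mediators had the median farthest from 0. Each 2-fold count of a list below stands against 2.46% lower and 1.02% higher over all genes. The lists were chosen with earlier results of these data known. Of 18 chemokine and cytokine genes with at least 50 UMIs, 11 were at least 2-fold lower in DMM and 1 at least 2-fold higher, with a median log2 ratio of -1.51. The same list had a median of -0.94 in the other connective tissue cells. Ccl2, which attracts monocytes, had 425 CPM in sham members and 71.9 in DMM members, 5.91-fold [5.40, 6.49] lower. In DMM 1 cell gave 20.2% of its UMIs, and leaving out the top sham and DMM cells gave a log2 ratio of -2.83. Ccl7, its neighbour on chromosome 11 and a monocyte attractant as well, was at 704 and 124 CPM, 5.68-fold [5.29, 6.09] lower. In the other connective tissue cells Ccl7 was at 104 and 20.9 CPM, so the members held the higher level in each library. The neutrophil attractants Cxcl1 and Cxcl2 were at 714 and 259 CPM and at 76.6 and 19.9 CPM. The eosinophil attractant Ccl11 was at 30.9 and 5.21 CPM.

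Cytokines and enzymes of the same response were lower as well. Il6 was at 92.0 and 27.7 CPM, Lif, a cytokine of the Il6 family, at 55.5 and 11.2, and Csf1, the macrophage growth factor, at 318 and 157. Il1r1, the receptor for interleukin-1, was at 474 and 162 CPM. Ptgs2, which encodes the cyclooxygenase that makes inflammatory prostaglandins, was at 189 and 41.4 CPM, 4.56-fold [4.04, 5.17] lower. Plau, the urokinase plasminogen activator, was at 513 and 108 CPM, 4.74-fold [4.39, 5.11] lower. The log2 ratio of Plau was -2.44, -2.65 and -1.57 in members with 3, 4 and 5 or 6 rule genes. In the other connective tissue cells it was -0.85, at 57.3 and 31.8 CPM. Among the genes of this list not past 2-fold lower were Cxcl12, a homing signal for blood progenitors (753 and 534 CPM), and Cxcl14, which was higher in DMM (198 and 323 CPM). Immediate early and heat shock genes, which enzymatic digestion can induce, had a median log2 ratio of -0.06 over 20 genes with none past 2-fold in either direction. With 1 library per group, tissue handling cannot be told apart from surgery, and its part in the lower levels above was not tested. Among the 10 lowest genes were also Phex, a phosphate-regulating peptidase (75.9 and 17.6 CPM), and Hhip, which binds hedgehog ligands (60.4 and 16.9 CPM). The log2 ratio of Hhip was -1.84, and it was -0.13 with the members that held 3 markers of another cell type left out.

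The promoters of some of the lower chemokine and cytokine genes hold the letters of a site for NF-kB, a transcription factor of inflammatory signalling. RefSeq promoter windows of 300 bases on GRCm38.p6 were on hand for 8 of the 11 lower genes and were searched on both strands for GGGA and TTCC with any 2 bases between them. The letters were present in 5 of the 8 (Csf1, Cxcl1, Cxcl10, Cxcl2 and Il6) and in 1.47% of all 32851 windows. The AP-1 letters TGANTCA were in 3 of the 8 (Cxcl10, Il6 and Lif) and in 7.81% of all windows. The 150 bases before the start site are given 5′ to 3′ for 3 of the genes, with the matching letters in capitals. In Cxcl1 and Cxcl2 the forward and reverse matches overlap, and the capitals cover both.
Cxcl1, chr5:90891095-90891244, plus strand: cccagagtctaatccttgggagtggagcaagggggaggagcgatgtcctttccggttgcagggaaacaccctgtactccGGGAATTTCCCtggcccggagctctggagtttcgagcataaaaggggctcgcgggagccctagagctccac
Cxcl2, chr5:90903749-90903898, plus strand: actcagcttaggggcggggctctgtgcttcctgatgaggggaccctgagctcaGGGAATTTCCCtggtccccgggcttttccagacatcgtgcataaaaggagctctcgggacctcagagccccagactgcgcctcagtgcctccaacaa
Il6, chr5:30012964-30013113, plus strand: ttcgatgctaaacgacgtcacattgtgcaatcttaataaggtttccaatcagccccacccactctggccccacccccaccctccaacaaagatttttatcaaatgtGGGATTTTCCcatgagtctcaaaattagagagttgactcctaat
The matches began 71, 97 and 44 bases before the start site. A match describes the letters of these windows only, and no binding was measured. The 8 were counted by gene and the percentages by window. Genes of the list that were not lower are not shown beside them. Whether NF-kB or AP-1 had a part in the lower levels was not tested.

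Genes of activated, matrix-forming fibroblasts went the other way. Of 18 activation and injury genes, 6 were at least 2-fold higher in DMM members and 0 at least 2-fold lower. Over all genes these shares were 1.02% and 2.46%. The list's median log2 ratio was 0.65, and 0.37 with 4 rule genes required. In the other connective tissue cells the median of the list was -0.29. Cthrc1, a secreted protein of injured vessels and scars, had 25.1 CPM in sham members and 95.6 in DMM members, 3.80-fold [3.28, 4.43] higher. Its log2 ratio was 1.30, 2.39 and 1.52 in members with 3, 4 and 5 or 6 rule genes. Lrrc15, a surface protein of scar and tumour fibroblasts, was at 18.0 and 66.1 CPM, 3.67-fold [3.07, 4.39] higher. Ccn5, a matricellular protein, was at 58.0 and 167 CPM, and Tnn, a tenascin, at 16.4 and 54.7 CPM. Piezo2, a mechanically gated channel, was at 21.0 and 57.4 CPM in members and at 45.9 and 29.8 CPM in the other connective tissue cells. Crabp2, which carries retinoic acid in the cell, was at 17.7 and 62.0 CPM.

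Several genes of the group need their spread beside them. Sfrp2, a Wnt modulator, was at 43.6 and 153 CPM, though 1 sham cell gave 30.2% of that library's UMIs for it. Its log2 ratio was 2.78, 1.59 and -0.90 in members with 3, 4 and 5 or 6 rule genes. Acta2, the smooth muscle actin, was at 63.2 and 104 CPM with 31.2% of the DMM UMIs in 1 cell, and the direction reversed to -1.33 with 4 rule genes required. Postn, a scar matrix protein, was lower in DMM, at 177 and 116 CPM. Fap, a peptidase of activated fibroblasts, was at 212 and 223 CPM with an interval of the log2 ratio from -0.02 to 0.17.

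Most tendon genes were higher in DMM members. Of 7 tendon and ligament markers, 5 were higher and 2 lower, 4 were at least 2-fold higher and 1 at least 2-fold lower, with a median log2 ratio of 1.44 against -0.19 in the other connective tissue cells. Fmod, a proteoglycan that shapes collagen fibrils, was at 73.6 and 291 CPM, and Thbs4, a thrombospondin of tendon, at 196 and 555. The tendon transcription factor Scx was at 8.06 and 24.2 CPM, and Tnmd, a marker of mature tendon cells, at 7.11 and 19.3. The gene at least 2-fold lower was Mkx, another tendon transcription factor, at 21.6 and 10.3 CPM. The list also held Egr1, an immediate early gene, which was among the 5 higher, at 884 and 1056 CPM. Cilp2, a cartilage intermediate layer protein, was at 15.8 and 51.3 CPM. Members with at least 3 tendon markers, of which Egr1 could be 1, were 8.44% of the sham and 19.2% of the DMM members. Without these cells the log2 ratio was 1.90 for Cthrc1, 1.85 for Lrrc15 and 0.59 for Thbs4. It was 3.13 for Fmod, 1.25 for Scx and 1.13 for Tnmd, and the median of the activation list was 0.43. The cells were left out by markers that include Thbs4, Fmod, Scx and Tnmd. The ratios of these genes were shaped by that choice and are no check on it. Among the 10 highest genes and Scx and Tnmd, all levels were below those of the other connective tissue cells except for Lrrc15 and Ccn5 and, in DMM, Crabp2 and Piezo2. Fmod stood at 698 and 1158 CPM in those cells.

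**Figure D3:**
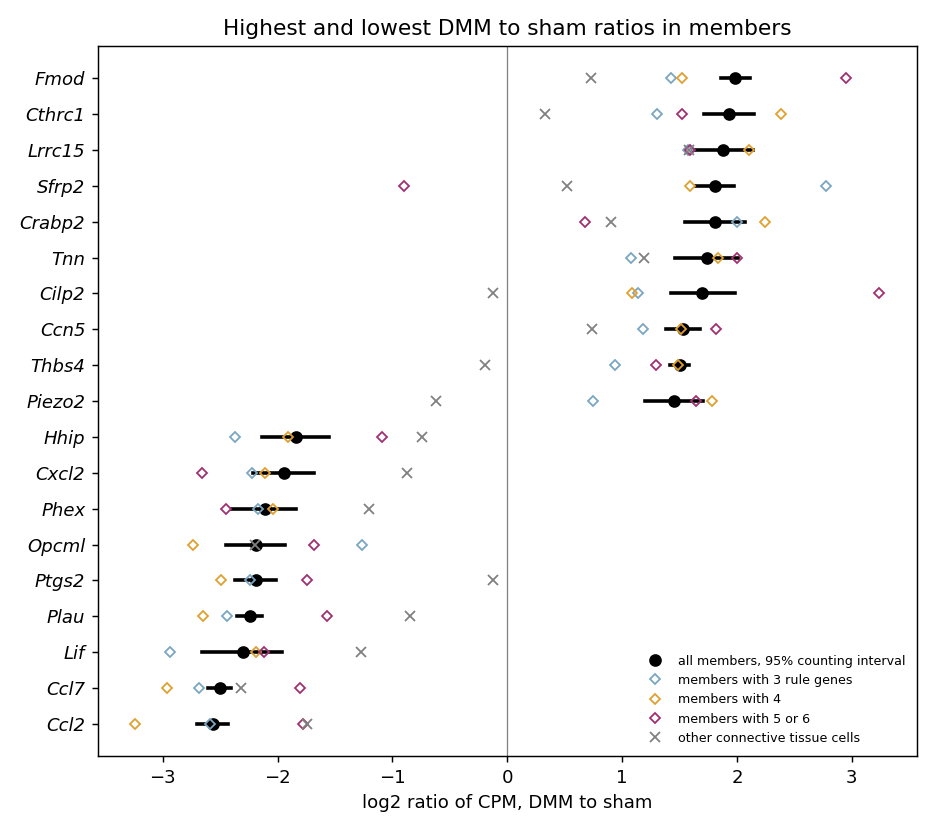
The log2 ratio of CPM, DMM to sham, for the 10 highest and 9 of the 10 lowest genes in members (black, with 95% counting intervals), in members with 3, 4 and 5 or 6 rule genes (open diamonds) and in the other connective tissue cells (crosses). Each gene keeps 1 direction in all 3 layers except Sfrp2, and the crosses of Cilp2, Thbs4 and Piezo2 lie below 0.

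Fibrillar matrix was modestly higher in DMM. Of 13 fibrous collagen genes, 11 were higher and 2 lower, none past 2-fold, with a median log2 ratio of 0.23, where 43.2% of all genes were higher. Col3a1, the collagen of compliant tissue, had 5273 CPM in sham members and 8079 in DMM members, 1.53-fold [1.51, 1.55] higher. Col1a1 was at 3492 and 4431 CPM and Col1a2 at 3455 and 4115, and Col14a1, which links fibrils, was at 957 and 854. In members with only 3 rule genes the log2 ratio of Col1a1 was -0.21, so that gene did not hold in each layer. The small proteoglycans had a median of 0.53 over 9 genes, 6 of them higher. Without the members that held 3 tendon markers the medians were 0.11 for the collagens and 0.33 for the small proteoglycans. Lum, which spaces collagen fibrils, was at 1670.2 and 2856 CPM, 1.71-fold [1.67, 1.75] higher, Bgn at 1032 and 1512, and Prelp at 408 and 723. Dcn, the decorin gene, was at 9489 and 11558 CPM. Comp, a pentameric matrix protein, was at 1199 and 2013 CPM.

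Basement membrane genes leaned lower, with 8 of 11 lower, none past 2-fold, and a median of -0.47. Of all genes 56.7% were lower, so the count alone sets the list little apart. Nid1, which bridges laminin and collagen IV, was at 297 and 168 CPM, Col4a1 at 321 and 191, and the laminin gene Lama2 at 328 and 214. Elastic fibre and microfibril genes were divided, with 8 higher and 7 lower of 15. Fbn1, the main microfibril protein, was at 688 and 417 CPM and Efemp1, a fibulin, at 159 and 73.9 CPM, while Loxl1, a crosslinking enzyme, was at 190 and 256. Of 20 proteases and inhibitors 2 were at least 2-fold lower, Plau and Dpp4, and 0 at least 2-fold higher. The gelatinase gene Mmp2 was at 499 and 724 CPM, and Timp1, a metalloprotease inhibitor, at 107 and 190.0 CPM.

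Growth factor genes were lower for the fibroblast growth factors. Fgf2 was at 92.5 and 31.2 CPM, Fgf7 at 142 and 60.0, and Fgf10 at 58.0 and 23.2. Of 19 genes in the list of IGF and growth factors 4 were at least 2-fold lower and 0 at least 2-fold higher, with a median of -0.36. Igf1 was higher, at 643 and 893 CPM, as was Angptl1, an angiopoietin-like factor, at 139 and 271. The IGF-binding genes differed among themselves: Igfbp5 was at 3322 and 2266 CPM and Igfbp7 at 1070.1 and 1549.7. Among 15 Wnt genes 4 were at least 2-fold lower and 1 at least 2-fold higher. The ligands Wnt11 (50.4 and 19.6 CPM) and Wnt10b (25.8 and 10.7 CPM) and the inhibitor Dkk2 (63.7 and 27.2 CPM) were lower, and the abundant Sfrp4 was at 1310 and 1406 CPM. TGF-beta and BMP genes had a median of -0.13 over 21. Ltbp1, which holds latent TGF-beta in the matrix, was at 569 and 363 CPM, and Id3, a target of BMP signalling, at 713 and 1012.

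Complement genes had a median of -0.06 over 12, with 2 at least 2-fold lower and 1 at least 2-fold higher. C7, a part of the membrane attack complex, had 215 CPM in sham members and 76.0 in DMM members, 2.83-fold [2.58, 3.12] lower, and C3, the central component, at 779 and 469. Both were higher in members than in the other connective tissue cells, where C7 stood at 14.3 and 7.46 CPM. Interferon and MHC class I genes had a median of -0.44, with 13 of 15 lower, against 56.7% of all genes, and 2 past 2-fold. Adipogenic and lipid genes had a median of -0.31, with 1 of 15 at least 2-fold lower, and Cebpb was at 1018 and 622 CPM. Antioxidant genes had a median of 0.22, with Hmox1, the haem oxygenase gene, at 60.3 and 121 CPM. Glycolysis and hypoxia genes had a median of 0.31 with none past 2-fold. Progenitor surface markers had a median of -0.21 with none past 2-fold, Pdgfra being at 553 and 399 CPM and Cd44 at 1338 and 953. Parenchymal fibroblast genes had a median of -0.59, with Inmt, a methyltransferase, at 29.3 and 8.78 CPM and Apod, a lipid carrier, level at 1007 and 1003.

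**Figure D4:**
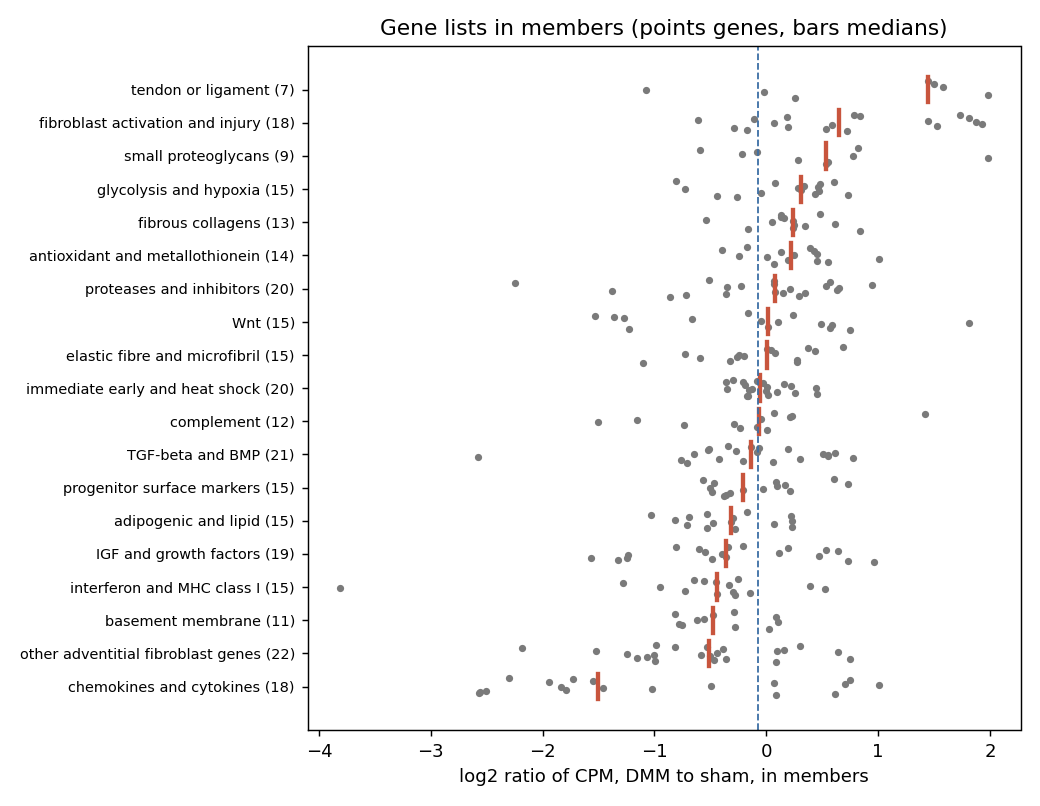
The log2 ratio of CPM, DMM to sham, of each gene with at least 50 UMIs in members (grey points), by gene list with the number of genes in brackets, and the median of each list (red bars). The dashed blue line is the median over all 11180 genes (-0.07); among the lists plotted, chemokines and cytokines lie lowest at -1.51 and tendon genes highest at 1.44.

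The members were not uniform, and those with a Pi16 UMI (312 sham, 199 DMM) differed from the rest in the same direction in both libraries for many genes. Over 11144 genes, 31.5% were higher in Pi16 members in both libraries and 28.6% lower in both. Of the 22 other adventitial genes 19 were higher in both and 3 lower in both. Tek was at 67.5 CPM in Pi16 members and 6.95 in the rest in sham, and at 42.0 and 3.77 in DMM. Efhd1, a mitochondrial calcium-binding protein, was at 103 and 20.4 CPM in sham, and Opcml at 208 and 48.1. Igfbp5 was at 6378 CPM in Pi16 members and 2208 in the rest in sham, and at 3549 and 1946 in DMM. C7 was at 426 and 138 CPM in sham and at 177 and 50.9 in DMM. Fbn1 was at 1257 and 481 CPM and Nid1 at 484 and 229 CPM in sham. Gfpt2 was at 2118 and 1066 CPM in sham. Scg3, which set members apart from the other connective tissue cells, went the other way. It was at 16.7 CPM in Pi16 members and 89.2 in the rest in sham, and at 4.13 and 33.6 in DMM.

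Fibrous collagens and most small proteoglycans were lower in Pi16 members. Of 13 fibrous collagen genes 12 were lower in both libraries and 0 higher, and of 18 activation and injury genes 14 were lower and 1 higher, against 28.6% of all genes lower in both. Of 9 small proteoglycans 6 were lower and 2 higher. Elastic fibre and microfibril genes went mostly the other way, with 9 higher and 4 lower, and basement membrane genes were divided, with 5 each. Col3a1 was at 3610.3 CPM in Pi16 members and 5879 in the rest in sham, and at 5376 and 8753 in DMM. Col1a1 was at 2268 and 3938 CPM in sham, Lum at 995 and 1916, and Comp at 695 and 1383. Fmod was at 12.7 and 95.8 CPM in sham and at 208 and 312 in DMM, so the gap was narrower in DMM. Thbs4 was at 66.7 and 244 CPM in sham and at 466 and 578 in DMM. Ccl7 did not separate the layers, at 689 and 709 CPM in sham and 120 and 125 in DMM. The DMM difference in Ccl7 was thus present both with and without a Pi16 UMI, at log2 ratios of -2.52 and -2.50. The chemokine and cytokine list summed to 3905 CPM in sham and 2253 in DMM in Pi16 members. In the rest it summed to 4666 and 2395 CPM. Median depths were 7357.5 and 7616.5 UMIs in sham and 6716 and 7369 in DMM, the lower value in the Pi16 members of each library, and the part of depth in these differences was not tested.

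**Figure D5:**
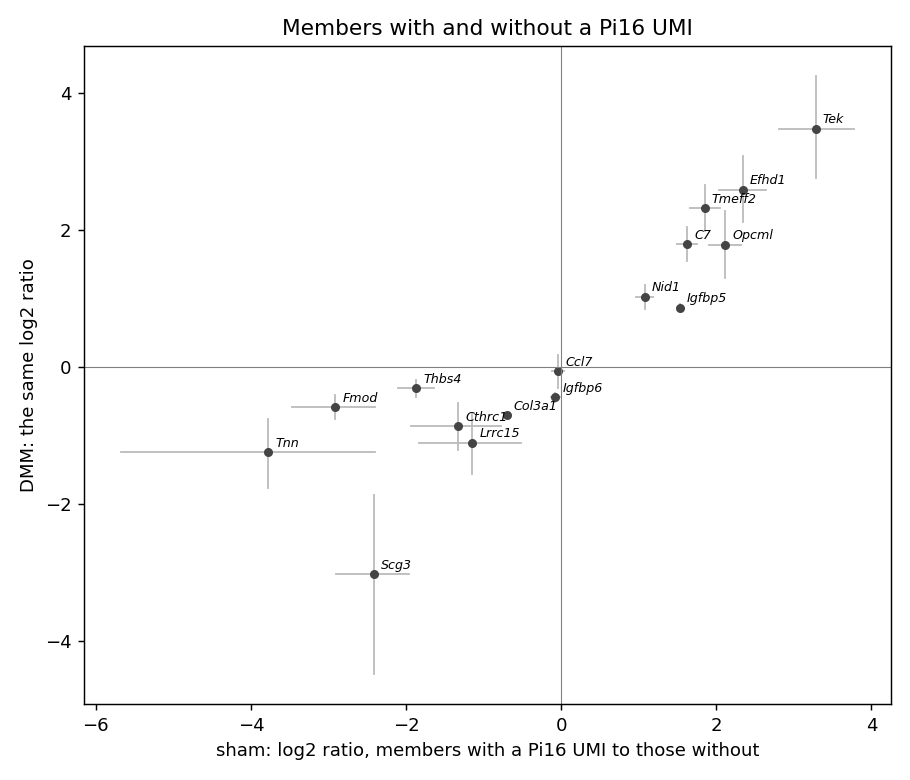
The log2 ratio of CPM in members with a Pi16 UMI to members without one, in sham (horizontal) and DMM (vertical), with 95% counting intervals as grey lines, for 16 named genes. Tek, Efhd1, Tmeff2, C7 and Opcml lie high in both libraries, Tnn, Fmod and Scg3 low in both, and Ccl7 near 0.

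Markers of other cell types were looked for in the members. At least 3 of 12 chondrocyte markers were found in 69.2% of sham and 55.0% of DMM members, and in 83.8% and 76.7% of the other connective tissue cells. The list held Comp, which fibroblasts also express, and Col2a1, which was also found in erythroid cells by a route that was not tested. Its summed level was 1858 CPM in sham and 2535 in DMM. Comp, at 1199 and 2013 CPM, set the direction of that sum, while 10 of the 12 genes were lower in DMM and the median log2 ratio was -0.49. Marrow stromal markers, 3 of 8, were found in 36.2% and 24.8% of members, and the list's median log2 ratio was -0.77, with Lepr, the leptin receptor gene, at 163 and 57.6 CPM. Osteoblast markers, 3 of 8, were found in 2.72% and 3.90%, and mural markers in 0.791% and 0.649%. Erythroid markers, 3 of 8, were found in 40 sham members (3.51%) and 20 DMM members (2.16%), at summed levels of 196 and 155 CPM. Neutrophil markers were at 5.94 and 538 summed CPM. For S100a8, 65.0% of the DMM UMIs came from 1 cell, so this was not spread over the members. Leukocyte markers were at 7.96 and 18.8 summed CPM, and skeletal muscle markers at 1.27 and 2.33, with 4 of 6 at 0 in both libraries. Without the members that held 3 blood or vessel markers, 1088 sham and 896 DMM members were left, and the median log2 ratio of the chemokine list was -1.57. With the members that held 3 markers of any other class left out, 333 and 404 cells were left, and the log2 ratio was -2.42 for Ccl7, -1.18 for Dpp4 and 1.88 for Cthrc1. In the same cells Hhip (-0.13) and Piezo2 (0.64, from 1.45) were no longer past 2-fold, and Sfrp2 was at 1.04, from 1.81.

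The median of the proliferation genes, and the genes it rested on, depended on which members were kept. At least 3 of 8 were found in 2.99% of sham and 2.06% of DMM members, all 8 genes were lower in DMM, and the median log2 ratio was -0.78. Mki67 was at 94.0 and 45.8 CPM and Top2a, a topoisomerase of dividing cells, at 41.7 and 20.2. In erythroid cells the list stood at 4159 and 3538 summed CPM. With the called doublets removed the median was 0.12, which was the value of Mki67 alone, and the log2 ratio of Top2a was -0.13. Without the members that held 3 blood or vessel markers the median was -1.56, which was the value of Top2a alone. Neither median rested on all 8 genes, so they are not the same measure as -0.78. The source of these transcripts in the members was not tested.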

How the data were processed

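The authors deposited UMI counts per gene and barcode for 2 libraries, made with Cell Ranger 7.1.0 per the file headers and with Cell Ranger 3.0.1, Seurat and the mm10 genome per the submitters' processing notes. The counts hold 32285 features and are not normalized. A bulk table with 6 per-sample columns whose names match no sample was not used. The members and the gene lists were chosen with earlier results of these data known.

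Members' UMIs were summed per library and divided by their total to give CPM, with exact Poisson intervals. Ratios have exact conditional binomial intervals, and shares Clopper-Pearson ones. PCR and capture are not modelled, so all intervals cover counting error only. A gene counted as 2-fold higher or lower had at least 50 UMIs over both libraries. The sort used CD45, Ter119 and CD31 to remove blood and endothelial cells, yet 1814 sham and 1009 DMM cells outside the members were erythroid. Doublets were called with Scrublet through scanpy 1.11.5 (seed 1) and left in, with their removal as an alternative. Members were not clustered.

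Genes named were the 6 rule genes, Prg4 and Col2a1, the 10 highest and 10 lowest DMM to sham ratios (100 or more UMIs, 50 CPM in 1 library, an interval clear of 1, and a direction kept under median-of-ratios scaling and when the top cell was dropped), the 12 highest and 6 lowest ratios to other connective tissue cells, up to 6 genes of each list by UMIs, and list genes past 2-fold. Of the 10 lowest, 1 is not reported here. S100a8 is shown for its top cell. The ratio calculation was tested on simulated counts for the DMM to sham comparison. Of 200 genes changed 2-fold among 11180, the interval excluded no change in 93.5%, and it covered 95.8% of unchanged genes. The simulated counts held counting error only and no variation between cells. They check the calculation and not the coverage in these data. Alternatives were other limits on genes, mitochondrial share and rule genes, thinning, other scalings, UMI minimums, doublet removal and leaving out members with markers of other cells. Promoter windows are from RefSeq.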

Additional observations from a re-analysis of the deposited data

Results flagged for a closer look

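In 6 genes the DMM to sham ratio went in opposite directions in members with and without a Pi16 UMI, with both counting intervals clear of no change. The difference was not tested between groups, since each group is 1 library. The share of all genes with such opposite directions is not given here, so the count of 6 cannot be set against it. The value given is the log2 ratio in Pi16 members minus that in the rest. It was 3.84 for Ube2c (2.48 against -1.36) and 1.32 for Birc5 (0.81 against -0.51), both genes of dividing cells. Over all members and with called doublets removed, the log2 ratio was 0.46 for Ube2c and 1.12 for Birc5. It was -1.71 for Acta2 (-0.91 against 0.81) and -0.85 for Spp1 (-0.32 against 0.53). It was 0.82 for the fibulin gene Fbln1 (0.36 against -0.46) and 0.74 for Apod (0.56 against -0.18). For Apod the 2 directions met in a pooled log2 ratio of 0.00, from 1007 and 1003 CPM. For Acta2 1 cell held 31.2% of the DMM UMIs.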

How the results depend on the processing

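The log2 ratio of the DMM to the sham share of members was -0.29. It was -0.66 with 4 of 6 rule genes required, -0.54 after thinning, -0.77 over connective tissue cells, -0.41 without erythroid and neutrophil cells, and 0.0098, the other direction, with 2 of 6 genes required. The count of genes at least 2-fold higher was 259 with a minimum of 20 UMIs and 67 with 100, and of those at least 2-fold lower 482 and 181. It was 164 lower without members holding 3 markers of other cell types, where fewer cells were summed. The main counts were 114 and 275. Birc5, whose interval held 0 (-0.18), was at 1.12 without doublets, 0.52 without marked members and 0.34 without tendon-marked members. Single genes clear of 0 that reversed were Clec3b (0.027 with median-of-ratios scaling, 0.017 with 4 rule genes, 0.075 without marked members, 0.067 with the makeup weighted), Pi16 (0.082 with 4 rule genes, 0.35 weighted), Acta2 (-1.33 with 4 rule genes), Spp1 (-0.035 with 4 rule genes), Mki67 (0.12 without doublets, 0.13 without marked members) and Ube2c (0.46 without doublets, 0.074 without tendon-marked members). The median of the proliferation list was 0.12 without doublets, where it was the value of Mki67 and did not rest on all genes of the list. Without marked members the proliferation list had too few UMIs for a median, so the 0.13 of Mki67 and the 0.52 of Birc5 rest on low counts. The cause of the reversals was not tested. Over the alternatives run, the log2 ratio ranged from -2.74 to -2.42 for Ccl7 and from -3.14 to -2.46 for Ccl2. No leave-one-out was possible with 1 library per group. The alternatives for weighting, tendon, blood and vessel markers, proliferation and the last share denominators were chosen after seeing the data. Depth limits the low genes most, since 50 UMIs over both libraries leave wide intervals.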
